A study of Mus musculus with 11 samples.

Results

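Lungs of 129S1 mice that had received aspirin and triptolide together were set against lungs of untreated control mice, to ask which genes differed and which of them still differed when the array Combination 1 was left out. The combination group held 3 arrays and the control group 2, of the 11 arrays of the study, and every gene with a row that names it alone was included, 19938 genes in all. Where a gene had several such rows, the row with the highest mean over the arrays stood for it. In the combination group aspirin at 4 mg per kg and triptolide at 1 mg per kg were gavaged 5 days a week over 2 months. The control samples are titled untreated, while the treatment protocol lists a group given PBS buffer, so whether the controls were gavaged was not settled. The other arrays, 3 of triptolide alone at 1 mg per kg and 3 of aspirin alone at 4 mg per kg, entered the fit for its estimate of the spread and are given beside the comparison. All animals share the strain, the labels give no age or sex, and they do not say that replicates came from separate animals, so p-values measure only the spread between these samples.

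Triptolide is a diterpenoid of the thunder god vine that binds Ercc3, the helicase of the general transcription factor TFIIH, which opens DNA for RNA polymerase II. Aspirin acetylates the cyclooxygenases, the enzymes that begin prostaglandin synthesis. The gas exchange surface of the lung is built of flat alveolar type 1 cells and a dense capillary bed, which holds general capillary cells and wide aerocytes, with pericytes and fibroblasts between them. Secretory and ciliated cells line the airways, and plasma cells around them secrete antibody.

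Values are deposited log2 levels from an Affymetrix mouse gene array, and differences are combination minus control on the log2 scale, with the SE of a limma fit over the 11 arrays. Sftpc, a surfactant gene, and Scgb1a1, a club cell gene, which define lung tissue, read between 13.62 and 14.08 on all 5 arrays of the comparison. Correlations across genes were 0.9551 to 0.9926 among combination arrays and 0.9964 between the control arrays. Combination 1 stood apart, at -60.2 on the first principal component, while the other 10 arrays lay between -6.8 and 15. Genes across arrays are no independent replicates, and these values describe the arrays only. Most list medians are therefore given with and without combination 1, and for most genes it is said whether they held. A gene was said to hold when its sign was the same and its unadjusted p was under 0.05 in both the fit of 11 arrays and the fit of the 10 arrays without combination 1.

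No gene passed at an adjusted p under 0.05 in the fit of 11 arrays (0 of 19938, 0%), and the smallest adjusted p was 0.0567. At an unadjusted p under 0.05 limma gave 680 higher genes (3.41%) and 2115 lower genes (10.6%). The count at an adjusted p under 0.05 was also 0 without moderation of the variances, 56 with moderation by trend and robust estimation and 1704 with array weights, which give combination 1 a weight of 0.149. Without combination 1 a single gene passed that adjusted p in limma (1 of 19938, 0.00502%). It was an immunoglobulin kappa variable segment, part of an antibody light chain, with an adjusted p of 0.0349. Such segments are closely similar to each other, and cross-hybridisation between them was not tested.

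Genes that held numbered 492 higher (2.47% of those tested) and 1440 lower (7.22%), which is 72.4% of the higher genes and 68.1% of the lower genes past the unadjusted p with all 11 arrays. The shares of 2.47% and 7.22% stand beside every count of list genes that held below. The other 188 higher and 675 lower genes missed that p without combination 1, and 0 of them changed sign. A further 859 genes reached it only without that array. The combination and control arrays did not overlap in 2836 higher genes (14.2%) and 4094 lower genes (20.5%), and 431 of the genes that held higher and 1439 of those that held lower were among these. Among genes that held, the median difference was 0.41 for higher genes and -0.47 for lower genes, against 0.01 over all genes. The rule for holding needs a fit without combination 1. With a further combination array or a control array left out, that fit has 1 array in a group. The count of 1932 genes that held is therefore not set beside such fits. With combination 3 alone left out, 896 genes passed at an adjusted p under 0.05. With each of the 5 arrays left out in turn, 101 higher and 772 lower genes had an unadjusted p under 0.05 every time.

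Among the lower genes with the smallest p that held and did not overlap were genes of blood vessels and of growth and adhesion signalling. Lpar4, a receptor for lysophosphatidic acid, read 7.12, 7.08 and 7.33 in combination lungs and 7.97 and 7.91 in control lungs, a difference of -0.76 ± 0.10. Edil3, a matrix protein that endothelial cells bind through integrins, read 7.80, 8.22 and 8.32 in combination lungs and 9.57 and 9.47 in control lungs. Its difference of -1.41 ± 0.21 was -1.25 without combination 1, and each combination array lay below both control arrays. Rasgrp3, an activator of Ras in vessels and lymphocytes, read 9.46, 9.95 and 9.89 with the combination and 10.89 and 10.78 in control, with combination 1 the lowest. Fzd2, a Wnt receptor, was among the most even, at 9.02, 9.05 and 9.10 with the combination and 9.64 and 9.66 in control. The list was completed by Tekt5, a tektin known from sperm flagella, at -0.73 ± 0.09, the connexin Gja4 at -0.86 ± 0.13, Tspan6 at -0.77 ± 0.12, the adhesion protein Flrt3 at -0.94 ± 0.14 and the adenylyl cyclase Adcy8 at -1.03 ± 0.16. It also held Myrf at -0.70 ± 0.11, the transporter Slc5a12 at -0.80 ± 0.13, the endothelial cadherin Cdh5 at -0.89 ± 0.14, Stmn2 at -1.08 ± 0.17 and the endothelial phosphatase regulator Ppp1r16b at -0.71 ± 0.11. The limma adjusted p of these 14 genes was 0.0567 or 0.0579.

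Among the higher genes chosen in the same way were genes of antibody secretion, lymphocytes and protein folding. Derl3, which helps to export misfolded proteins from the endoplasmic reticulum, read 9.61, 9.43 and 9.45 in combination lungs and 8.64 and 8.63 in control lungs, a difference of 0.86 ± 0.13. Hsph1, a large cytosolic chaperone of the heat shock response, read 10.30, 10.04 and 10.08 with the combination and 8.83 and 9.22 in control, 2.16-fold higher. Igha, the heavy chain of IgA, read 11.61, 11.32 and 11.86 with the combination and 10.02 and 10.18 in control. In these 3 genes the combination arrays lay close together and above both control arrays. Myb, a transcription factor of blood precursors, differed by 0.78 ± 0.13 and Slc11a2, an iron transporter, by 0.47 ± 0.09. Snrnp70, a splicing protein, and Nxf1, the receptor for messenger RNA export, differed by 0.51 ± 0.10 and 0.38 ± 0.08. Lymphocyte genes were Lax1 and Lat2, membrane adaptors, at 0.74 ± 0.16 and 0.48 ± 0.11, Gimap3 at 0.89 ± 0.20, Fcamr, a receptor for IgA and IgM, at 0.60 ± 0.14 and the endolysosomal channel Mcoln2 at 0.52 ± 0.11. Gp2, a glycoprotein that binds bacteria on mucosal cells, differed by 1.63 ± 0.36 and the mitotic kinase Nek2 by 1.06 ± 0.25. The limma adjusted p of these 14 genes lay between 0.0579 and 0.095.

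**Figure D1:**
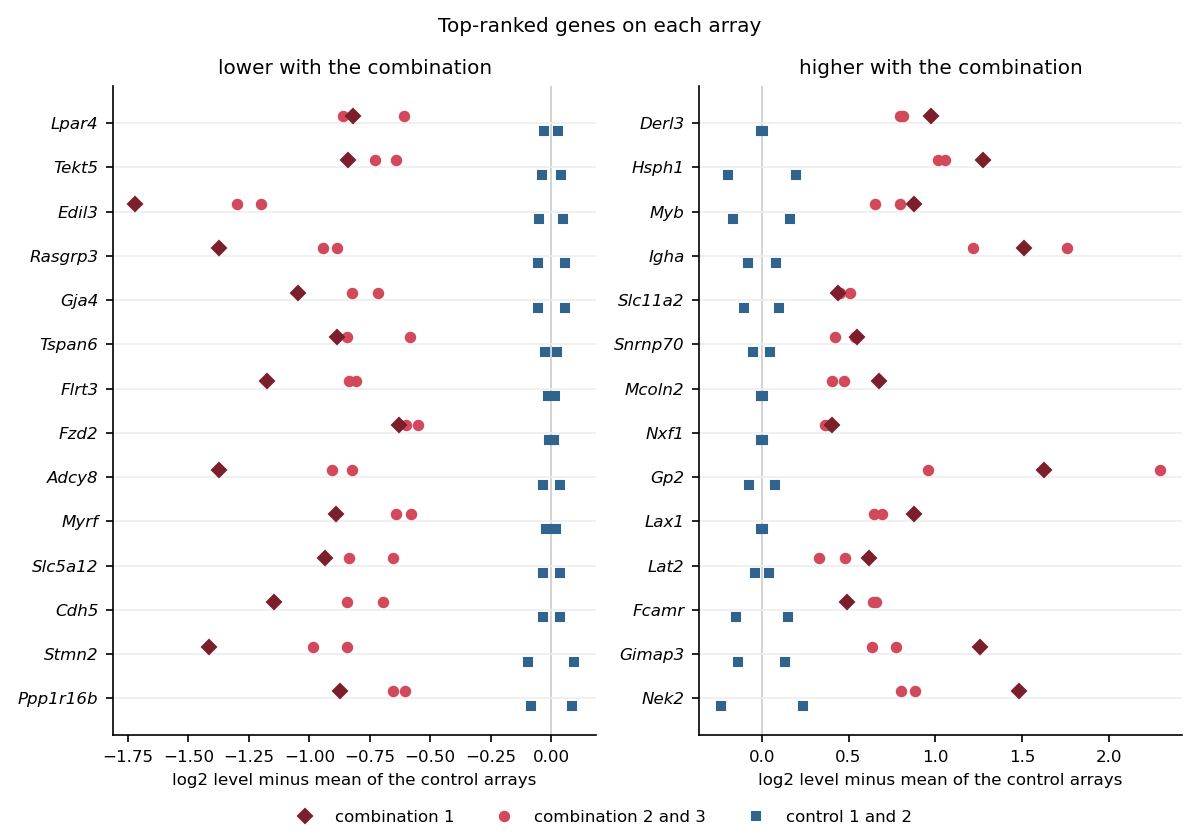
Log2 level of the 14 lower and the 14 higher top-ranked genes on each array, minus the mean of the control arrays (x axis, log2), with the combination arrays above the control arrays in each row and combination 1 as a diamond. In every gene the combination arrays lie on one side of the control arrays, since the genes were ranked among those without overlap, and Gp2 spreads the most among the combination arrays, from 8.26 to 9.60.

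At the ends of the range, chosen after their values were seen, stood Glp1r and Reg3g. The largest differences among genes that held were also -2.03 and 2.63. Glp1r, the receptor for the gut hormone GLP-1, read 8.84, 8.87 and 9.93 in combination lungs and 11.41 and 11.07 in control lungs, a difference of -2.03 ± 0.36. Reg3g, an antimicrobial lectin of mucosal epithelium, read 10.10, 10.94 and 7.38 with the combination and 6.83 and 6.86 in control, a difference of 2.63 ± 0.88 that was uneven among the combination arrays.

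Genes of the blood vessel lining were lower on every combination array in nearly all cases. Of 20 pan-endothelial genes, all 20 lay lower with the combination, 18 held lower and 0 held higher, and the median difference was -0.77, or -0.66 without combination 1. Their mean level was 10.47, 10.75 and 10.92 in combination lungs and 11.51 and 11.42 in control lungs, so combination 1 was the lowest and no array overlapped. Cdh5, the cadherin of endothelial junctions, read 11.84, 12.14 and 12.29 with the combination and 13.02 and 12.95 in control. Plvap, which spans the pores of capillaries, read 11.26, 11.30 and 11.61 with the combination and 12.14 and 12.17 in control, a difference of -0.76 ± 0.12. Ednrb, an endothelin receptor, differed by -1.04 ± 0.18, Eng, a coreceptor for BMP ligands, by -0.76 ± 0.13 and the endothelial transcription factor Erg by -0.79 ± 0.14. In bulk tissue, fewer cells of a type and less RNA in each cell cannot be told apart, and this holds for every group named here after a cell type.

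Both kinds of lung capillary cell were included. Of 11 general capillary genes 10 held lower, with a median of -0.76, or -0.69 without combination 1. Of 7 aerocyte genes 4 held lower, with a median of -0.53, or -0.56 without combination 1. Kit, the stem cell factor receptor, differed by -0.88 ± 0.14, with each combination array below both control arrays. Aplnr, the apelin receptor of general capillary cells, named beside its ligand after its values were seen, read 9.09, 9.59 and 9.31 with the combination and 10.70 and 10.45 in control, and Apln, its ligand, made by aerocytes, read 8.89, 8.95 and 9.0 with the combination and 9.98 and 9.86 in control. Receptor and ligand thus both lay below control on every combination array. The aerocyte enzymes Car4 and Chst1 differed by -0.93 ± 0.16 and -0.53 ± 0.12, and Ptprb, a phosphatase of endothelial junctions, by -0.76 ± 0.16. Fibin, an aerocyte marker, read 8.75, 8.89 and 9.59 with the combination and 9.50 and 9.46 in control, where the groups overlapped.

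Arterial and Notch genes held lower in 11 of 17, with a median of -0.45, or -0.35 without combination 1. Gja5, a connexin of arterial endothelium, read 9.16, 9.66 and 9.99 with the combination and 10.60 and 10.69 in control, a difference of -1.05 ± 0.22. Unc5b, a guidance receptor of arteries, was more even, at 8.53, 8.57 and 8.52 with the combination and 8.94 and 9.0 in control. Efnb2, the arterial ephrin, differed by -0.77 ± 0.13 and the semaphorin Sema3g by -0.55 ± 0.10. The venous and lymphatic list was mixed, with 2 of 10 genes holding lower and 1 higher, beside 7.22% and 2.47% of all genes. Its median was -0.10, or -0.09 without combination 1, 0.01 without combination 2 and -0.33 without combination 3. Its lower members were Flt4, the receptor for VEGF-C, at -0.57 ± 0.14 and the hyaluronan receptor Lyve1 at -0.68 ± 0.24. Its higher member was Prox1, the transcription factor of lymphatic identity, at 0.30 ± 0.11, and the vein factor Nr2f2 read 10.17, 10.69 and 10.97 with the combination and 10.94 and 10.88 in control, where the groups overlapped.

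Signalling genes of vessels that held lower included ligands, receptors and intracellular partners. In the VEGF and angiopoietin list 7 of 14 genes held lower and 0 higher, with a median of -0.58, or -0.39 without combination 1. Tek, the angiopoietin receptor, read 10.89, 11.29 and 11.40 with the combination and 12.19 and 12.09 in control, and Angpt2, a ligand of Tek, read 8.35, 8.65 and 9.02 with the combination and 9.63 and 9.50 in control. The VEGF receptors Kdr and Flt1 differed by -0.93 ± 0.20 and -0.70 ± 0.14 and Tie1, the partner of Tek, by -0.60 ± 0.14. Among BMP genes 8 of 19 held lower, with a median of -0.49 that was -0.24 without combination 1. They included the ligand Bmp6 at -0.91 ± 0.16, the receptors Bmpr2 at -0.68 ± 0.14 and Acvrl1 at -0.61 ± 0.14, the coreceptor Eng and the inhibitor Smad6 at -0.50 ± 0.11. Bmp6 read 10.54, 10.60 and 10.84 with the combination and 11.68 and 11.46 in control, with no overlap. Receptors for the lipid sphingosine 1-phosphate followed Lpar4 in direction, with S1pr1 at -0.53 ± 0.18, S1pr2 at -0.38 ± 0.13 and S1pr3 at -0.49 ± 0.16. With Plpp1, an enzyme that removes phosphate from these lipids, at -0.61 ± 0.15, 5 of 14 genes of that list held lower and 0 higher.

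Genes that set vascular tone held lower in 9 of 15, with a median of -0.59, or -0.37 without combination 1. Gucy1a1, a subunit of the nitric oxide receptor, read 9.50, 10.07 and 10.36 with the combination and 10.97 and 10.86 in control. Gucy1b1, the other subunit, read 9.25, 9.75 and 10.08 with the combination and 10.65 and 10.54 in control. Calcrl and Ramp2, which together form the adrenomedullin receptor, differed by -0.62 ± 0.13 and -0.62 ± 0.14. Of 11 pericyte genes 7 held lower, with a median of -0.44, or -0.39 without combination 1. The vessel and pericyte lists share members, among them Ednrb, Tek, Eng, Gucy1a1 and Gucy1b1, so their counts are not independent. Pdgfrb, the receptor that recruits pericytes, read 10.34, 10.53 and 10.89 with the combination and 11.65 and 11.48 in control, and the pericyte genes Cox4i2 and Ndufa4l2 differed by -0.64 ± 0.13 and -0.44 ± 0.09. Smooth muscle genes gave another picture, with 0 of 10 holding in either direction and a median of -0.03 that lay between -0.17 and 0.12 with 1 array left out, the highest without combination 1. Acta2, smooth muscle actin, read 11.93, 12.60 and 12.70 with the combination and 12.44 and 12.51 in control, so that combination 1 alone lay below control.

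**Figure D2:**
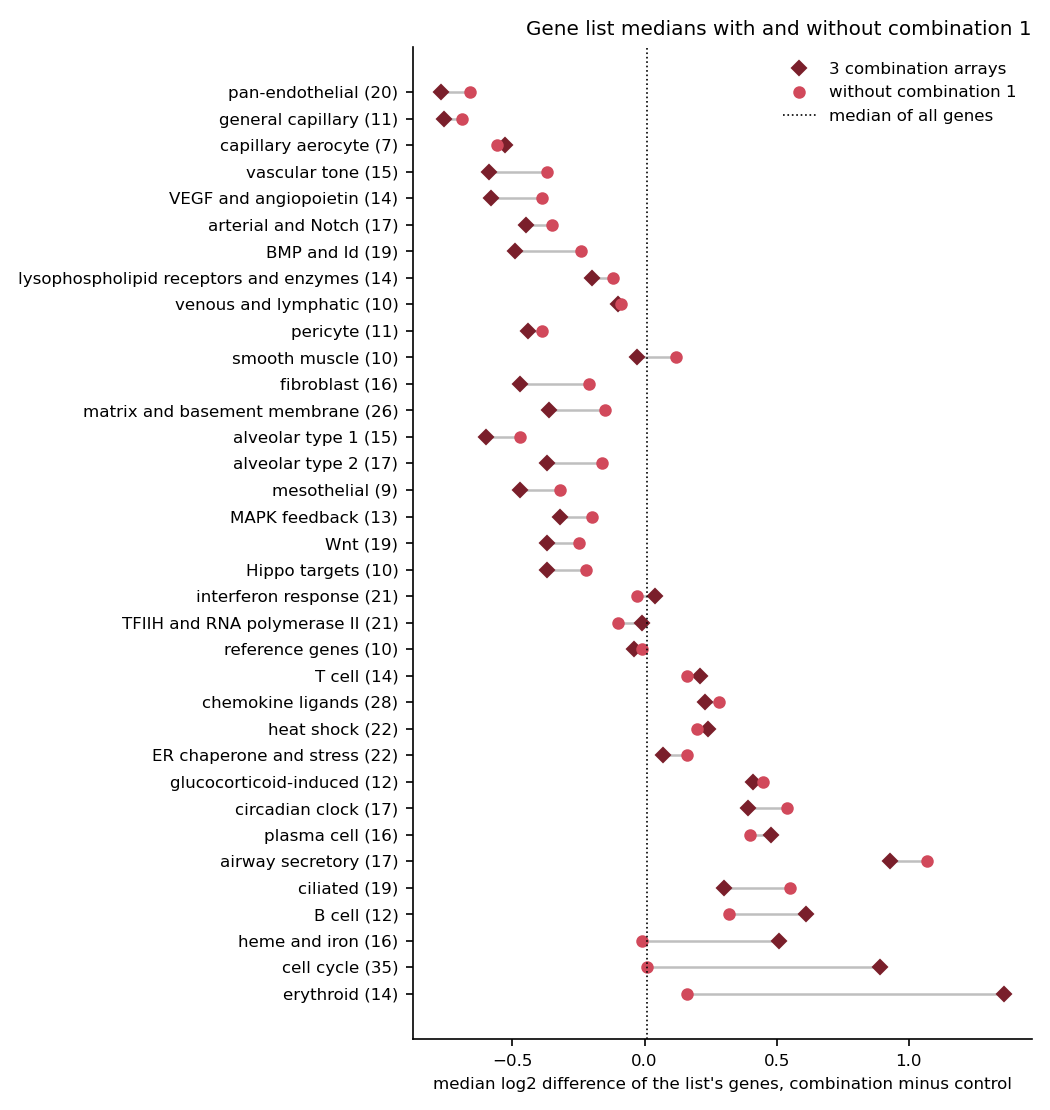
Median log2 difference, combination minus control, of the genes of 35 lists (y axis, with the number of genes measured), with all 3 combination arrays (diamonds) and without combination 1 (circles), beside the median of all genes (dotted line, 0.01). The vessel and alveolar type 1 lists stay to the left of that line without combination 1, while the erythroid and cell cycle medians move to 0.16 and 0.01.

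Alveolar type 1 genes held lower in 12 of 15, with a median of -0.60, or -0.47 without combination 1. Their mean level was 10.87, 11.33 and 11.65 in combination lungs and 11.89 in both control lungs. Akap5, a kinase anchor, read 10.39, 10.75 and 11.21 with the combination and 11.92 and 11.67 in control, and Cldn18, a tight junction protein, read 11.99, 12.60 and 12.84 with the combination and 13.29 and 13.25 in control. The water channel Aqp5 differed by -0.69 ± 0.18, the chloride channel protein Clic5 by -0.65 ± 0.16 and the caveolar protein Cav1, which endothelial cells also make, by -0.70 ± 0.16. Combination 1 was the lowest and combination 3 the highest of the combination arrays in each of these genes. Type 2 genes, of the cells that make surfactant, held lower in 3 of 17, beside 7.22% of all genes. Their median was -0.37, or -0.16 without combination 1. The 3 were S100g, a calcium-binding protein, at -0.95 ± 0.17, the lysozyme Lyz1 at -0.90 ± 0.22 and Lpcat1, which makes surfactant lipid, at -0.48 ± 0.16. Lamp3, a lamellar body protein, read 10.70, 11.97 and 11.80 with the combination and 12.24 and 12.34 in control and did not hold.

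Differences of stromal genes were smaller without combination 1. Fibroblast genes held lower in 3 of 16 and matrix and basement membrane genes in 8 of 26, beside 7.22% of all genes. Their medians were -0.47 and -0.36, or -0.21 and -0.15 without combination 1. The fibroblast genes that held were Npnt, a matrix ligand of integrins, at -0.80 ± 0.23, the growth factor Wnt2 at -0.78 ± 0.23 and the transcription factor Meox2 at -0.81 ± 0.25. Wnt2 read 8.64, 9.29 and 9.47 with the combination and 9.89 and 9.93 in control. Fbln5 and Loxl1, which assemble elastic fibres, differed by -0.73 ± 0.15 and -0.81 ± 0.23, and Hspg2 and Nid1, of basement membranes, by -0.54 ± 0.14 and -0.43 ± 0.13. Mesothelial genes, of the lung's outer lining, held lower in 1 of 9, beside 7.22% of all genes. The 1 was Upk1b, at -0.65 ± 0.21. Upk3b, another mesothelial gene, read 9.26, 10.41 and 9.37 with the combination and 10.87 and 10.51 in control and did not hold.

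Genes of growth signalling were counted next. Of 13 genes induced by MAPK signalling, 4 held lower and 0 higher, with a median of -0.32, or -0.20 without combination 1 and -0.54 without combination 3. Etv5, a transcription factor of that output, read 9.91, 10.28 and 10.44 with the combination and 10.96 and 11.09 in control, and the inhibitors Spry1 and Spred2 and the phosphatase Dusp6 differed by -0.68 ± 0.17, -0.45 ± 0.13 and -0.57 ± 0.19. Hbegf, a ligand of the EGF receptor, was the 1 gene of 11 in its list that held, at -0.72 ± 0.16, a share near the 7.22% of all genes that held lower. Wnt genes had a median of -0.37, or -0.25 without combination 1. They held lower in 6 of 19, with Axin2, a common target gene, at -0.47 ± 0.12, the receptors Fzd1 and Fzd4 at -0.59 ± 0.13 and -0.62 ± 0.18 and the coreceptor Lrp5 at -0.51 ± 0.14. The Hippo list had a median of -0.37, or -0.22 without combination 1. In it 4 of 10 held lower, including the coactivator Wwtr1 at -0.71 ± 0.14 and the kinase Lats2 at -0.52 ± 0.13. Ier3 and Jun, immediate early genes, differed by -0.65 ± 0.15 and -0.53 ± 0.17, while Nr4a3, a nuclear receptor of the same class of genes, read 8.48, 8.69 and 9.20 with the combination and 7.95 and 8.14 in control, a difference of 0.75 ± 0.23. Immediate early factors as a whole held lower in 4 of 24 and higher in 2, beside 7.22% and 2.47% of all genes.

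In the mean of their list, plasma cell genes were higher by like amounts on all 3 combination arrays. Of 16, 13 lay higher and 3 lower, and 1 lay lower without overlap. Of the 16, 9 held higher and 0 lower, with a median of 0.48, or 0.40 without combination 1. The mean level was 9.96, 9.96 and 9.95 in combination lungs and 9.35 and 9.44 in control lungs. Mzb1, a chaperone of antibody folding, read 9.52, 9.52 and 9.07 with the combination and 8.41 and 8.52 in control, a difference of 0.90 ± 0.21. Sec11c, of the signal peptidase, differed by 0.59 ± 0.14 and the transcription factor Irf4 by 0.61 ± 0.15, and Igha and Derl3, given above, are members too. Combination 1 did not stand apart in this list. It did in mature B cell genes, where 0 of 12 held, although the median was 0.61, or 0.32 without combination 1, and the mean level was 9.81, 9.15 and 8.62 in combination lungs and 8.71 and 8.55 in control lungs. Cd79a, a chain of the B cell receptor, read 10.68, 9.83 and 9.14 with the combination and 8.91 and 8.82 in control, and Spib, a B cell transcription factor, read 10.29, 9.43 and 8.78 with the combination and 8.60 and 8.50 in control. In both genes combination 1 was the highest array. T cell genes had a median of 0.21, or 0.16 without combination 1. They held higher in 2 of 14 and lower in 1, beside 2.47% and 7.22% of all genes. The 2 were the cytokine receptor Il7r at 0.72 ± 0.23 and the inhibitory receptor Ctla4 at 0.68 ± 0.22, and the other was the transcription factor Lef1 at -0.33 ± 0.11.

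Chemokine ligands, which attract leukocytes, held higher in 10 of 28 and lower in 2, beside 2.47% and 7.22% of all genes. Their median was 0.23, or 0.28 without combination 1 and 0.12 without combination 2. Cxcl13, which draws B cells into follicles, read 11.44, 10.80 and 11.02 in combination lungs and 9.32 and 9.61 in control lungs, 3.08-fold higher. Ccl8 read 8.75, 8.67 and 8.95 with the combination and 7.19 and 7.41 in control. Cxcl9, induced by interferon gamma, differed by 1.06 ± 0.34, the eosinophil attractant Ccl11 by 0.78 ± 0.24 and the monocyte attractant Ccl12 by 0.33 ± 0.10. Cx3cl1 and Cxcl16, which are bound to the cell membrane, lay the other way, at -0.43 ± 0.13 and -0.44 ± 0.16. These 2 make up a share of the list near that of all genes that held lower. Interferon-induced genes were split, with 4 of 21 holding lower and 1 higher, beside 7.22% and 2.47% of all genes. Their median was 0.04, or -0.03 without combination 1. The antiviral genes Ifit2, Ifit3, Ifih1 and Xaf1 differed by -0.52 ± 0.13, -0.35 ± 0.11, -0.51 ± 0.14 and -0.47 ± 0.11, and Mx2 by 0.31 ± 0.13. The 17 NF-kB genes had a median of 0.09, or 0.13 without combination 1. Of them Rela, a subunit of the factor, and its target Icam1 held lower, at -0.32 ± 0.12 and -0.52 ± 0.16. The kinase Ikbke held higher, at 0.33 ± 0.12, and the same shares of all genes stand beside these counts.

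Of the lists, airway secretory genes had the largest median that did not shrink without combination 1, at 0.93, and 1.07 without that array. The difference was uneven, since combination 2 was highest and combination 3 lowest, with mean levels of 10.62, 11.33 and 10.04 in combination lungs and 9.49 and 9.74 in control lungs. Of 17 genes 5 held higher and 0 lower. Bpifb1, a secreted protein of mucous cells, read 11.53, 12.42 and 10.75 with the combination and 9.47 and 9.77 in control, and Ltf, the iron-binding lactoferrin, read 9.85, 10.38 and 8.51 with the combination and 7.65 and 8.06 in control. Tff2, a trefoil peptide of mucus, differed by 0.93 ± 0.29 and the mucin Muc5ac by 0.64 ± 0.26. Ciliated cell genes held higher in 6 of 19, with a median of 0.30, or 0.55 without combination 1, 0.16 without control 1 and 0.49 without control 2, but in 0 of the 19 were the groups free of overlap. Tmem212 read 9.80, 10.43 and 10.51 with the combination and 9.42 and 9.86 in control, and Foxj1, the master factor of motile cilia, read 9.48, 9.96 and 9.87 with the combination and 9.15 and 9.50 in control. In both genes combination 1 lay within the control range and the other combination arrays above it.

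Heat shock genes had a median of 0.24, or 0.20 without combination 1. They held higher in 8 of 22 and lower in 1, beside 2.47% and 7.22% of all genes. Beside Hsph1 they included the Hsp90 cochaperones Stip1 and Ahsa2 at 0.49 ± 0.13 and 0.41 ± 0.11, Hspa4l, a relative of Hsph1, at 0.51 ± 0.14 and Hspe1, the cochaperonin of mitochondria, at 0.59 ± 0.17. Hspa1a, the inducible Hsp70, read 9.41, 9.76 and 9.81 with the combination and 9.05 and 9.35 in control and did not hold. The lower gene was Cryab, a small chaperone, at -0.64 ± 0.18. Hspe1 read 11.48, 10.87 and 10.84 with the combination and 10.38 and 10.58 in control, and Hspd1, its partner, which is transcribed the other way from the same promoter, read 11.27, 10.49 and 10.34 with the combination and 10.21 and 10.30 in control and did not hold. Hspd1 was named for that shared promoter after its values were seen. In both genes combination 1 was the highest array.

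The bases before the Hspe1 start site are shown because they hold the binding letters of heat shock factor. The sequence is from RefSeq (GRCm38.p6, chr1:55087898-55088147, plus strand), the 250 bases before the start, with the matched letters in capitals.
Hspe1 promoter: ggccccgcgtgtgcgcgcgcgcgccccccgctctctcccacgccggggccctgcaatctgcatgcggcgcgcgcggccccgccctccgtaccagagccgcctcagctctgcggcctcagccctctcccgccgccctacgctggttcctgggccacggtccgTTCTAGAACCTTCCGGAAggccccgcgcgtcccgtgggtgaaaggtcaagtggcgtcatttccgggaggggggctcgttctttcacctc
The letters searched were GAANNTTC with a further GAA starting 2 bases after it or a further TTC ending 2 bases before it. They read the same on either strand, and the 2 matches in this window overlap. Such a match stood in the 250 bases before the start of 2 of the 18 heat shock genes with a promoter in the table, Hspe1 and Hspd1, which share it, against 139 of 27025 genes (0.514%). The letters GAANNTTC alone stood there in 6 of the 18 and in 7.73% of all genes. Of the 6 heat shock genes that held higher and had a promoter 2 had them, and of the 12 others 4.

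Chaperones of the endoplasmic reticulum had a median of 0.07, or 0.16 without combination 1, 0.03 without control 1 and 0.12 without control 2. They held higher in 4 of 22 and lower in 0, beside 2.47% and 7.22% of all genes. The 4 were Sdf2l1 at 0.38 ± 0.13, Creld2 at 0.32 ± 0.12, Pdia4 at 0.26 ± 0.11 and Manf at 0.25 ± 0.09. Genes of the body clock lay in both directions. The clock activators Arntl and Clock held lower, with Arntl at 8.23, 8.39 and 8.77 in combination lungs and 9.58 and 9.49 in control lungs, and Clock at 9.42, 9.98 and 10.20 with the combination and 10.59 and 10.60 in control. The repressors Per1, Per2 and Per3 held higher, at 0.70 ± 0.28, 0.82 ± 0.28 and 0.93 ± 0.32, with Ciart, another repressor, at 0.87 ± 0.28 and the output factor Dbp at 1.05 ± 0.45. In all, 5 of 17 clock genes held higher and 2 lower, beside 2.47% and 7.22% of all genes. The clock median was 0.39, or 0.54 without combination 1. Of 12 glucocorticoid-induced genes 5 held higher, led by Zbtb16, a transcription factor, which read 10.74, 11.04 and 11.80 with the combination and 9.96 and 9.57 in control. The others were Fkbp5, which modulates the glucocorticoid receptor, at 1.19 ± 0.43, Tsc22d3 at 0.78 ± 0.30 and the metallothioneins Mt1 and Mt2 at 0.64 ± 0.19 and 1.02 ± 0.31. The labels give no time of collection, and its part in the clock result was not tested.

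Several lists were high on combination 1 and near control on the other combination arrays. Erythroid genes, of red cell precursors, had a mean level of 11.37, 7.74 and 7.48 in combination lungs and 7.59 and 7.53 in control lungs, and 0 of 14 held. Their median was 1.36 with the 3 arrays and 0.16 without combination 1. Car1, a carbonic anhydrase of red cells, read 13.54, 7.90 and 7.05 with the combination and 7.19 and 7.20 in control, and Gata1, the erythroid transcription factor, read 10.79, 7.63 and 7.69 with the combination and 7.51 and 7.36 in control. Cell cycle genes had a mean level of 10.73, 8.24 and 8.03 with the combination and 8.12 and 8.15 in control, and although all 35 lay higher in the mean, 0 held and the median without combination 1 was 0.01. Mki67, a marker of dividing cells, read 12.60, 9.08 and 8.26 with the combination and 8.55 and 8.50 in control. Heme and iron genes followed at 11.54, 10.01 and 10.01 with the combination and 9.98 and 10.06 in control. Of these 16 genes 2 held higher, beside 2.47% of all genes. The 2 were Slc11a2 and the heme enzyme Ppox, at 0.76 ± 0.33. Slc11a2 read 10.23, 10.24 and 10.30 with the combination and 9.69 and 9.89 in control and so did not share the height of combination 1. Genes of neutrophil precursors stood at 8.62, 7.74 and 7.69 with the combination and 7.46 and 7.43 in control. Of 9, 2 held higher, Ltf and the protease Ctsg, beside 2.47% of all genes. Ltf is also in the airway secretory list, and like that list it was highest on combination 2.

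**Figure D3:**
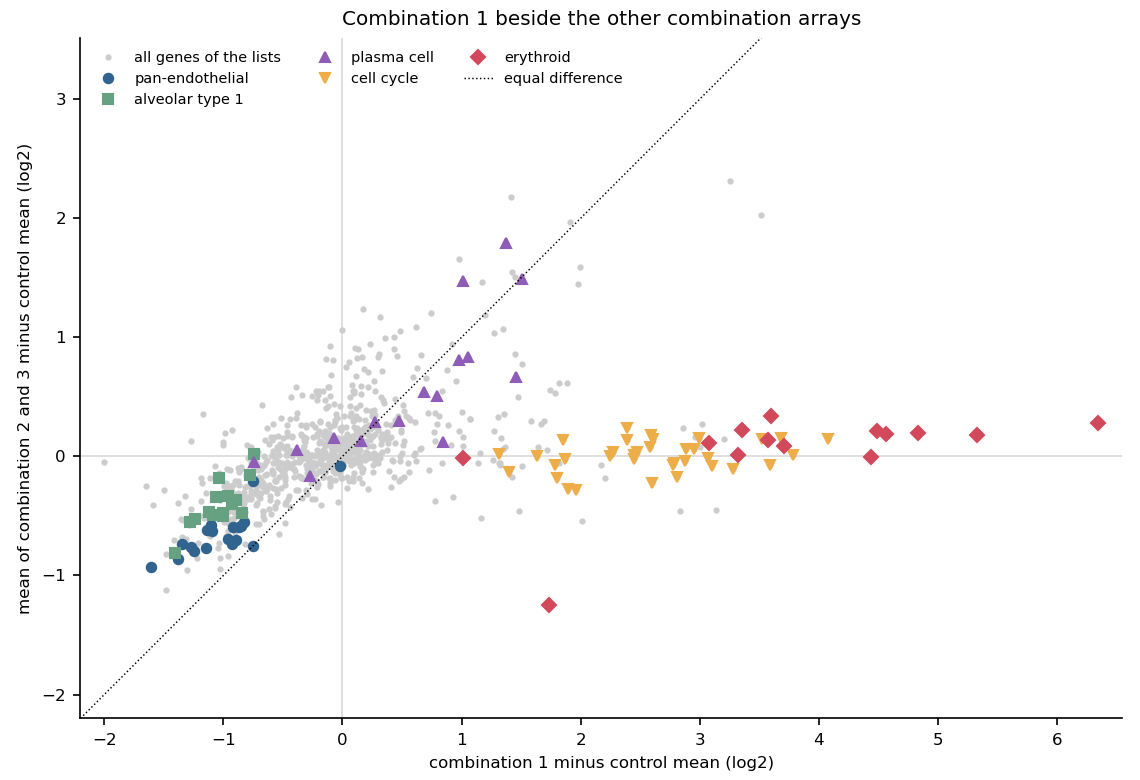
Log2 level on combination 1 minus the control mean (x axis) beside the mean of combination 2 and 3 minus the control mean (y axis), 1 point per gene of the lists, with the dotted line where both are equal. Cell cycle and erythroid genes spread to the right along the horizontal line, except for 1 erythroid gene below it, and pan-endothelial and alveolar type 1 genes lie lower left, on both axes below 0 with few exceptions.

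Some genes passed the unadjusted p with 11 arrays and missed it without combination 1. The 6 higher genes with the smallest p were Fyb, Traf3ip3, Ly9, Plcg2, Cd24a and Cd37, most of them known from leukocytes. Cd37 read 11.21, 10.60 and 10.20 in combination lungs and 9.88 and 9.89 in control lungs, a difference of 0.79 ± 0.29 that was 0.52 without combination 1. The 6 lower genes were Aldh1a2, a retinoic acid synthesis enzyme, the connexin Gja1, the transcription corepressor Nab1, Glb1l3, the lysosomal peptidase Tpp1 and Arhgap28. Aldh1a2 read 8.30, 9.27 and 8.51 with the combination and 9.69 and 9.43 in control, a difference of -0.87 ± 0.31 that was -0.67 without combination 1. In all 12 the groups did not overlap, so the sign was the same without that array. Their unadjusted limma p without it lay between 0.0504 and 0.0621, a narrow miss. They were picked for a small p with 11 arrays, so this does not describe the other genes that missed it.

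**Figure D4:**
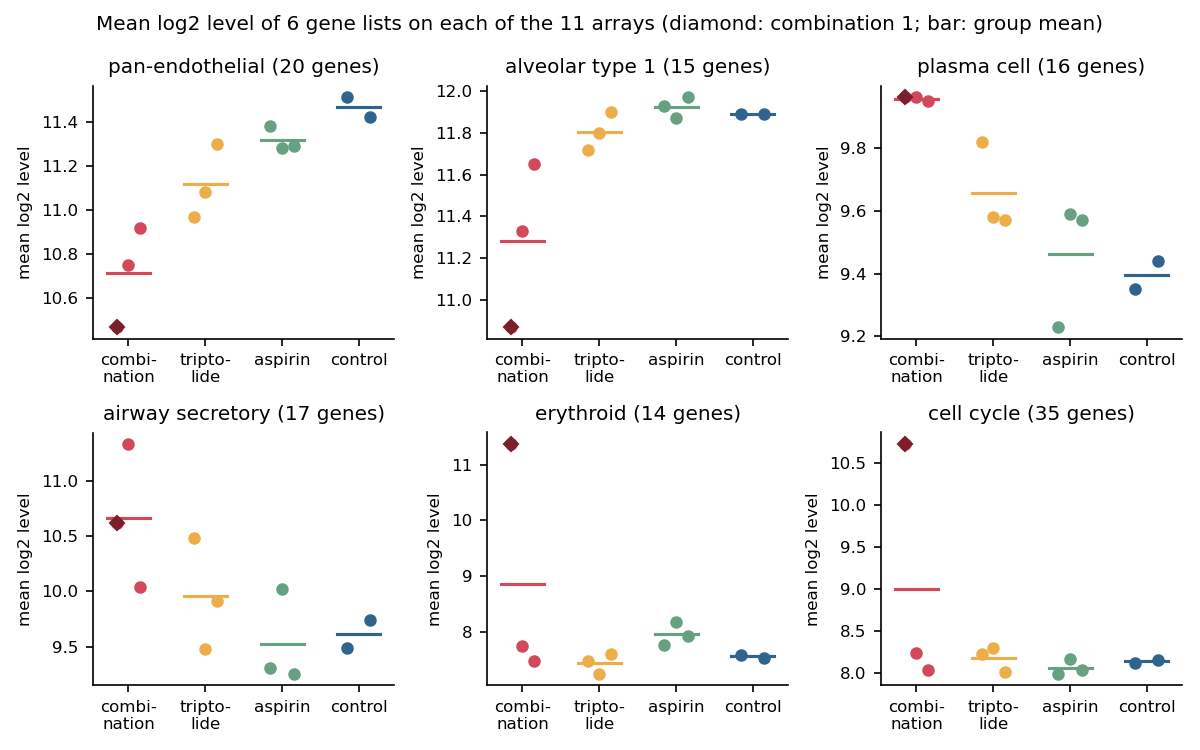
Mean log2 level of 6 gene lists on each of the 11 arrays (y axis), by group from combination to control, with the group mean as a bar and combination 1 as a diamond. Plasma cell levels of the combination arrays coincide near 9.96, and the erythroid and cell cycle panels have 1 high array each, combination 1.

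The named targets of the drugs were read directly. Ercc3, which triptolide binds, read 10.25, 10.19 and 10.31 in combination lungs and 10.42 and 10.50 in control lungs, a difference of -0.21 ± 0.08 that held, and it was the 1 gene of 21 TFIIH and RNA polymerase II genes that held in either direction, a share below that of all genes (7.22% lower and 2.47% higher). Ptgs2, the inducible cyclooxygenase, read 9.30, 10.06 and 10.11 with the combination and 9.93 and 10.43 in control, and the groups overlapped. Of 26 prostanoid and leukotriene genes 3 held lower and 0 higher, beside 7.22% and 2.47% of all genes. The 3 were Hpgd, which breaks prostaglandins down, at -0.69 ± 0.17, Ptges, which makes prostaglandin E2, at -0.48 ± 0.17, and Lta4h, of leukotriene B4 synthesis, at -0.32 ± 0.12. Myc, a growth gene, read 10.81, 9.64 and 9.40 with the combination and 9.17 and 9.28 in control, with a difference of 0.72 ± 0.31 that was 0.30 without combination 1 and held. Casp8, an initiator of apoptosis, was the 1 gene of 18 in the survival and apoptosis list that held, at -0.41 ± 0.11, again a share below that of all genes. In the lists of p53 targets, NRF2 targets, hypoxia, cardiac muscle, skeletal muscle and adipocytes 0 genes held. Of 10 reference genes 0 held, with a median of -0.04, or -0.01 without combination 1.

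Both drugs alone were set against the same 2 control arrays, so the 3 regimens share them and are given side by side only, over all arrays. Pan-endothelial genes had a median of -0.77 with the combination, -0.38 with triptolide and -0.14 with aspirin. Alveolar type 1 genes had medians of -0.60, -0.10 and 0.03 in the same order, plasma cell genes 0.48, 0.20 and 0.03, and airway secretory genes 0.93, 0.21 and 0.01. Heat shock genes stood at 0.24 with the combination, 0.20 with triptolide and -0.12 with aspirin, and clock genes at 0.39, 0.49 and 0.39. The combination was tested directly against each drug. Against triptolide 0 genes passed in limma after adjustment (0%), with a smallest adjusted p of 0.353 and 2703 genes at an unadjusted p under 0.05. Without combination 1 that unadjusted p was met by 744 higher and 997 lower genes. Against aspirin 0 genes passed likewise (0%), with a smallest adjusted p of 0.0643 and 2322 genes at an unadjusted p under 0.05. Without combination 1 it was met by 813 higher and 1063 lower genes. Cdh5 differed by -0.49 from triptolide and -0.68 from aspirin, Derl3 by 0.37 and 0.74, and Hsph1 by 0.44 and 1.23. In Gja4 the difference was -0.13 from triptolide and -0.71 from aspirin, and in Apln -0.28 and -0.37. Xist and the Y-linked gene Eif2s3y, which tell female from male tissue, differed by 0.43 ± 1.14 and 0.41 ± 0.88 between combination and control. They differed by 5.58 and -3.82 between combination and aspirin, so drug and sex cannot be told apart in comparisons with the aspirin arrays. The part of sex in the other comparisons, that with triptolide included, and in the pooled spread was not tested.

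**Figure D5:**
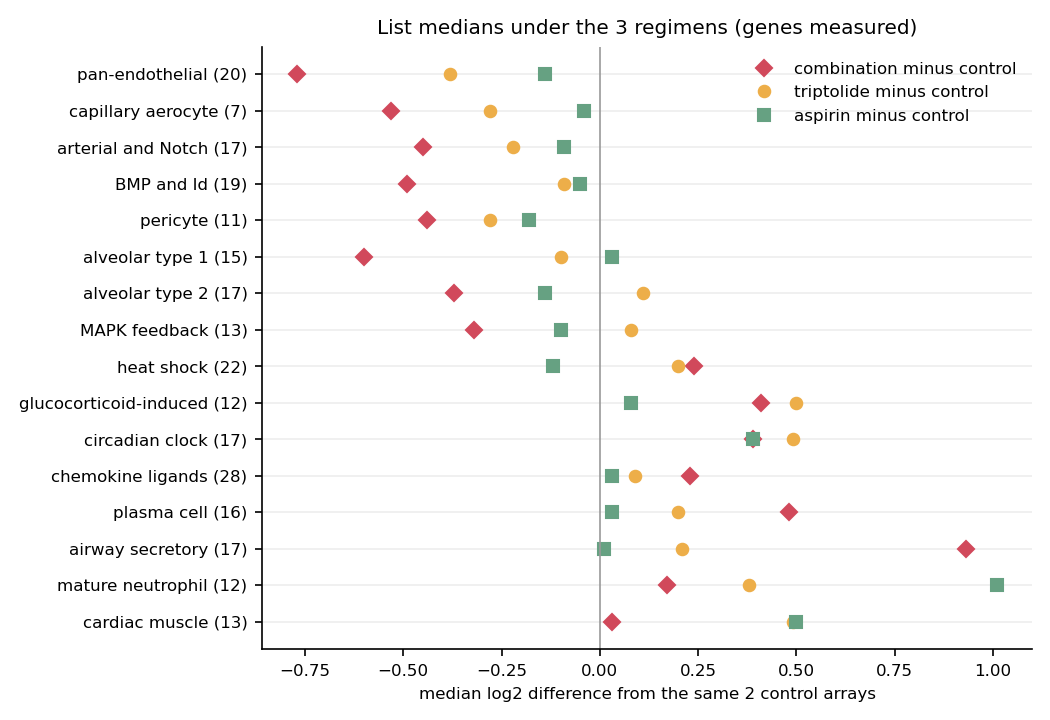
Median log2 difference of the genes of 16 lists from the same 2 control arrays (x axis), for the combination, triptolide alone and aspirin alone. Over all arrays the vessel, alveolar and plasma cell medians are farthest from 0 with the combination. Without combination 1 the alveolar type 2 median of the combination is -0.16, beside 0.11 with triptolide and -0.14 with aspirin. The clock medians lie between 0.39 and 0.49 in all 3 regimens. The mature neutrophil median is highest with aspirin, at 1.01. There aspirin 2 has a mean level of 10.65 and the other aspirin arrays 8.14 and 7.98, against 8.01 and 8.05 in control.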

How the data were processed

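RNA of mouse lung was hybridised to Affymetrix gene arrays, 11 in all. The deposited log2 values, made by the authors with RMA and Partek per the submitters' processing notes, were used as given; no source used here gives their versions, settings or genome build. Of 35556 rows, 21789 name 1 gene symbol, 1621 name several and 12146 are unnamed here. Linear models with moderated variances (limma 3.58.1, under R 4.3.3) were fitted over the 4 groups, with Benjamini-Hochberg adjustment over 19938 genes, with and without combination 1. The script was tested on simulated data. The comparison, its 60 gene lists and the tests were chosen with earlier results of these data known. Genes were named by rule. Per direction these were the 14 with the smallest p that held without overlap, and up to 5 per list in the direction of its median. The rule also took members of the opposite sign that held, fixed targets, and 6 per direction that missed the unadjusted p without combination 1. Glp1r, Aplnr, Hspd1, Sftpc and Scgb1a1 fall outside it. Alternatives were other sample sets, a replicate block, array weights, other moderation, scaling, row choice and filters on low values. The number of arrays limits the precision.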

Additional observations from a re-analysis of the deposited data

How the results depend on the processing

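The count of genes at an adjusted p under 0.05 in limma, 0 for combination against control, depended on the setting. It was 152 with the replicate block, 1704 with array weights, 56 with trend and robust moderation, 83 with median-centred arrays, 3 with quantile normalization, 66 above the 25th percentile of mean level, 218 above the median and 302 with the combination and control arrays only, without combination 1, a setting chosen after seeing the data. Leaving out 1 array at a time gave 0 to 896, the highest without combination 3. Without combination 1 the count of 1 was 302 with the combination and control arrays only, 0 with the replicate block, 1001 with array weights, 398 with trend and robust moderation and 0 without moderation. It was 135 and 89 with median-centred and quantile-normalized arrays, 280 and 458 above the 25th percentile and the median, 117 with the mean of all rows of a gene and 0 with every row. With a further triptolide or aspirin array left out it was 0 to 203, the highest without triptolide 1. Genes at an unadjusted p under 0.05, 2795, numbered 4900 with array weights, 4260 over every row and 1404 to 3925 with 1 array left out. Genes that held, 1932, numbered 3995 with array weights, 2993 over every row and 777 to 2205 with 1 array left out. Genes without overlap, 6930, numbered 4207 above the median level, 11517 over every row and 6930 to 11342 with 1 array left out. Against triptolide the count of 0 was 1 with array weights and 0 to 24 with 1 array left out. Against aspirin it was 873 with array weights, 1 with trend and robust moderation, with median-centred arrays, with quantile normalization and above the 25th percentile, 4 above the median and 0 to 704 with 1 array left out.

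With 1 array left out, list medians ranged from -0.33 to 0.01 for venous and lymphatic genes, -0.55 to -0.24 for BMP genes, -0.71 to -0.37 for vascular tone, 0.40 to 0.58 for plasma cells, 0.20 to 0.29 for heat shock, -0.54 to -0.20 for MAPK feedback, -0.07 to 0.20 for cardiac muscle, 0.16 to 0.55 for ciliated genes, 0.32 to 0.85 for B cells, 0.03 to 0.16 for chaperones of the endoplasmic reticulum, 0.12 to 0.28 for chemokines, -0.72 to -0.32 for mesothelial genes, -0.01 to 0.80 for heme and iron and -0.08 to -0.01 for reference genes. Median-centring gave plasma cells 0.46, and quantile normalization gave plasma cells 0.53, heat shock 0.34, cardiac muscle 0.13 and reference genes 0.09. Of 180 genes named, 169 were past the unadjusted p. Of these 0 changed sign in any setting, 63 lost that p when some combination or control array was left out and 30 in some other setting. The genes were named largely for a small p. Where the groups do not overlap, leaving out 1 array cannot change the sign, so the count of 0 is no check of these differences. Acta2 lay between -0.21 and 0.17 with 1 array left out and turned to 0.17 without combination 1 (also with the combination and control arrays only), 0.12 with array weights and 0.07 with quantile normalization, and Eif2s3y lay between -0.18, without combination 3, and 0.91, without combination 2. The cause of these changes was not tested. Nothing in the labels says that replicate numbers pair the samples. Same-numbered combination and control arrays correlated at 0.102 and 0.079 in their deviations from the group means, and same-numbered arrays of all pairs of groups at -0.139 to 0.329, with control and aspirin at 0.322 and 0.329, so not every pair was over 0.1 and the replicate block is given here only. With 2 control arrays the comparison rests on few samples, and row values give no signal over background.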
